A study of Mus musculus with 4 samples.

Results

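The genes examined were 35 genes of the cardiac sarcomere and Z-disc, of 22367 protein-coding genes in the GENCODE vM1 annotation of the mouse. They were chosen by name for the place of their proteins in the sarcomere. For each gene a window was set that held the gene body and 20 kb on each side. Every H3K27ac region whose centre lay in such a window was taken from the region list of each genotype. This gave 21 of the 12566 regions listed for mdx IKKβf/f hearts, and 20 of the 22981 listed for mdx HRTΔIKKβ hearts.

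H3K27ac was mapped by ChIP-seq in whole hearts of 7-month-old male mdx mice, which lack dystrophin. In mdx HRTΔIKKβ hearts (labelled Myh6-cre;IKKβ[delta]) a cre recombinase under the Myh6 promoter, which is active in cardiomyocytes, deleted floxed IKKβ. The mdx IKKβf/f controls were littermates that carried the floxed gene without cre, and both genotypes had the mdx mutation. Each genotype had 1 ChIP library and 1 input library, so the spread between hearts is unknown and the genotypes could not be tested against each other. The depth of ChIP was 57852347 tags for mdx IKKβf/f hearts and 62458751 tags for mdx HRTΔIKKβ hearts. The intervals given are 95% intervals for counting error alone. The deletion itself cannot be checked in these lists, which held no region in the body of Ikbkb, the gene for IKKβ, in either genotype.

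Acetylation of histone H3 at lysine 27 marks active promoters and enhancers, and genes that define a tissue are commonly surrounded by it. In the sarcomere, thick filaments of myosin pull on thin filaments of actin, which carry troponin and tropomyosin as the calcium switch. The Z-disc anchors the thin filaments, the M-band ties the thick filaments together, titin runs from one to the other, and desmin, filamin and the intercalated disc link the myofibrils to the cell's edge. Myosin heavy chain needs dedicated chaperones to fold. Many of these genes are among the most highly expressed genes of heart muscle.

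The regions came from HOMER findPeaks in histone mode. A region was listed where 500 bp of sequence held at least 4 times the tags of the matched input and enough tags to pass the caller's threshold, which was a score of 29 tags in the mdx IKKβf/f list and of 30 in the mdx HRTΔIKKβ list. The findPeaks score is read as the tag count of the highest window, and normalised tags are tags of the whole region per 10000000 tags of the library. In some 500 bp regions the score exceeded the tags of the region, as in Ldb3 (29 against 25). The 2 measures are therefore not the same count. A window with no region is one in which nothing passed these limits, not one shown to lack the mark. In whole hearts, fewer cells of a type and less acetylation in each cell cannot be told apart.

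Of the 35 windows, 14 (40.0%) held at least 1 mdx IKKβf/f region, against 29.0% of the windows of all protein-coding genes. At least 1 mdx HRTΔIKKβ region was found in 13 (37.1%), against 45.5% of all protein-coding windows. Each window has a mean count under random placement, given by the density of regions on its chromosome and its length. From these means, an mdx IKKβf/f region would be expected in 11.8 windows and an mdx HRTΔIKKβ region in 17.6. Regions of both lists lay in 7 windows, those of Myh7, Ttn, Tnni3, Nebl, Des, Smyd1 and Unc45b. The windows of Myh6, Myl4, Myom1, Ldb3, Pdlim5, Flnc and Xirp2 held mdx IKKβf/f regions only. Those of Myl2, Myl3, Tnnc1, Myom2, Tcap and Xirp1 held mdx HRTΔIKKβ regions only. The matching shares over all protein-coding windows were not counted, so this split is not read as a trait of the members.

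Neither list had a region around 15 members, which is 42.9% of the windows, beside 44.1% of all protein-coding windows and 12.6 windows expected from density. They were Myl7 and Mybpc3 of the thick filament, and Tnnt2, Tpm1, Actc1, Acta1 and Lmod2 of the thin filament. Of the Z-disc genes, Actn2, Csrp3, Myoz2, Myot, Pdlim3, Synpo2l and Ankrd1 had none. The chaperone gene Cryab, which protects desmin, completed the group. Several of these encode proteins that are abundant in the heart, such as cardiac α-actin (Actc1), cardiac troponin T (Tnnt2) and cardiac myosin-binding protein C (Mybpc3). Their gene bodies ran from 2.15 to 71.3 kb, and 1 of them, Actn2, was longer than 50 kb.

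**Figure D1:**
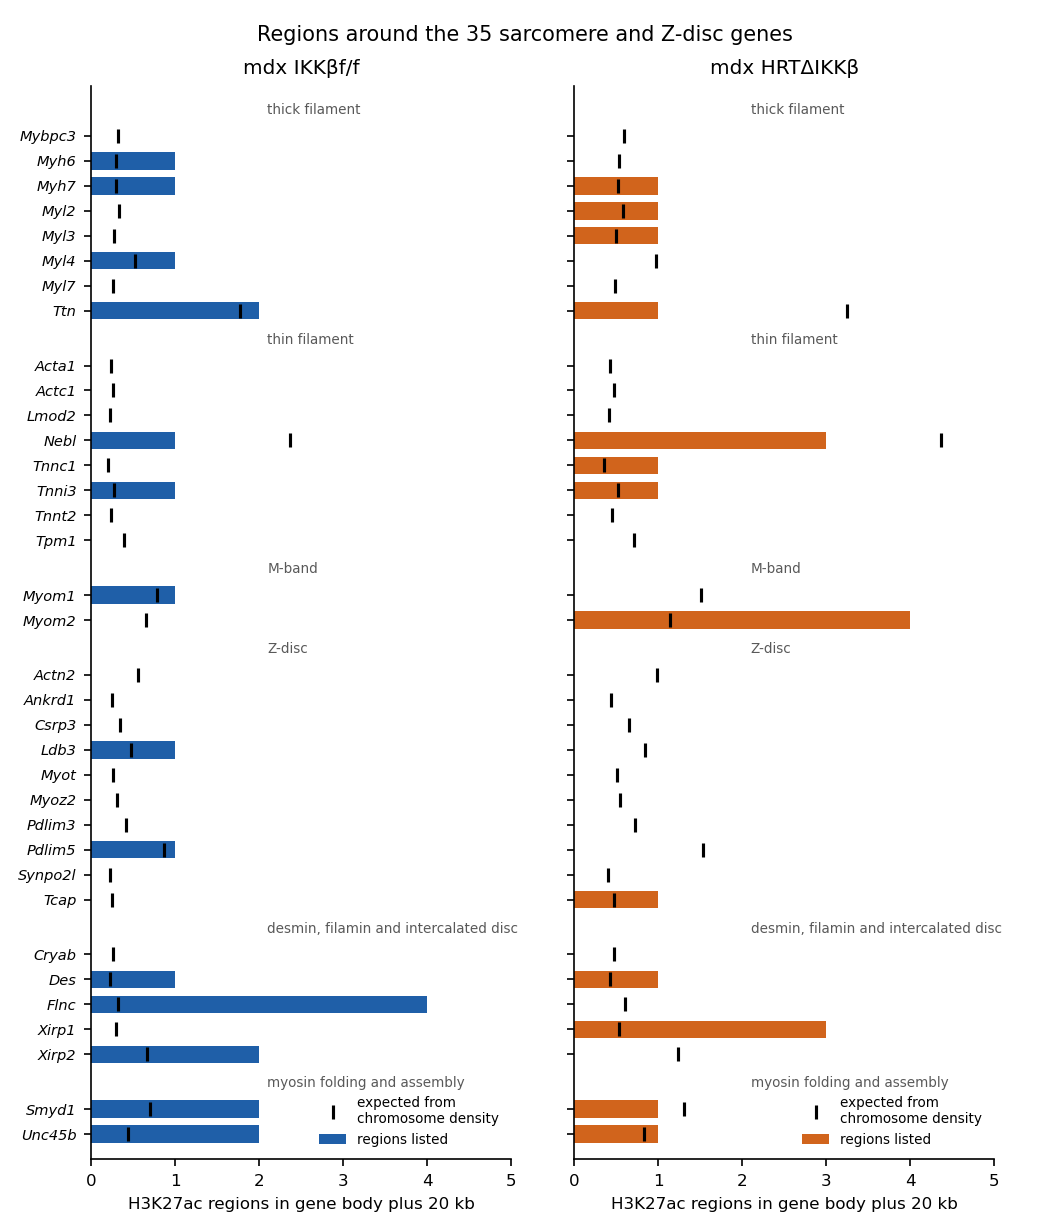
H3K27ac regions listed in the gene body plus 20 kb of each of the 35 genes, by role, for mdx IKKβf/f (left) and mdx HRTΔIKKβ (right), with 1 library per genotype. Bars give the number of regions and black ticks the number expected from the density of regions on the chromosome. The longest bars are Flnc with 4 mdx IKKβf/f regions and Myom2 with 4 mdx HRTΔIKKβ regions, and 15 genes have no bar in either panel.

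Summed over the windows, which covered 3092 kb, the 21 mdx IKKβf/f regions (exact Poisson interval 13.0 to 32.1) stood beside 16.4 expected from chromosome density, a ratio of 1.28 (0.794 to 1.96). The 20 mdx HRTΔIKKβ regions (12.2 to 30.9) stood beside 30.0 expected, a ratio of 0.666 (0.407 to 1.03). Both intervals included 1, so neither list departed from its chromosome density beyond counting error. Over all protein-coding genes the same ratios were 1.04 and 1.07. The member windows were richer in GC than the genome (44.5% against 41.8%). When the expectation was set within classes of GC content on each chromosome, it became 21.2 mdx IKKβf/f regions, a ratio of 0.991 (0.614 to 1.52). It became 38.6 mdx HRTΔIKKβ regions, a ratio of 0.518 (0.316 to 0.80). This interval lay below 1, though not with the higher mdx HRTΔIKKβ threshold described below. Over all protein-coding genes the ratios by GC class were 0.906 and 0.930.

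Regions of mdx HRTΔIKKβ made up 48.8% of the 41 regions around the members (Wilson interval 34.3% to 63.5%), and 64.7% of the regions of both lists over the assembled chromosomes. The upper end of the interval lay under the share of the whole lists. The mdx HRTΔIKKβ threshold was lower relative to the tags the caller expected in a window (1.92 times, against 2.01 times in mdx IKKβf/f). With mdx HRTΔIKKβ regions limited to those with a findPeaks score of at least 32, 16 remained. A score of 32 is the lowest whole score that reaches the mdx IKKβf/f multiple. This limit lay slightly above that multiple, and the next lower score, slightly below it, was not tried. The share around the members was then 43.2% (28.7% to 59.1%), an interval that held the 52.5% of the whole lists. The ratio to chromosome density was then 0.873 (0.499 to 1.42) and that by GC class 0.649 (0.371 to 1.05), so both included 1. At this limit the lower share of mdx HRTΔIKKβ regions around these genes was therefore within counting error. Window by window, in the lists without this limit, 10 members (28.6%) had more mdx IKKβf/f than mdx HRTΔIKKβ regions, against 13.3% of all protein-coding genes. The reverse held for 7 members (20%), against 34.8%. Most of these counts differed by a single region.

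**Figure D2:**
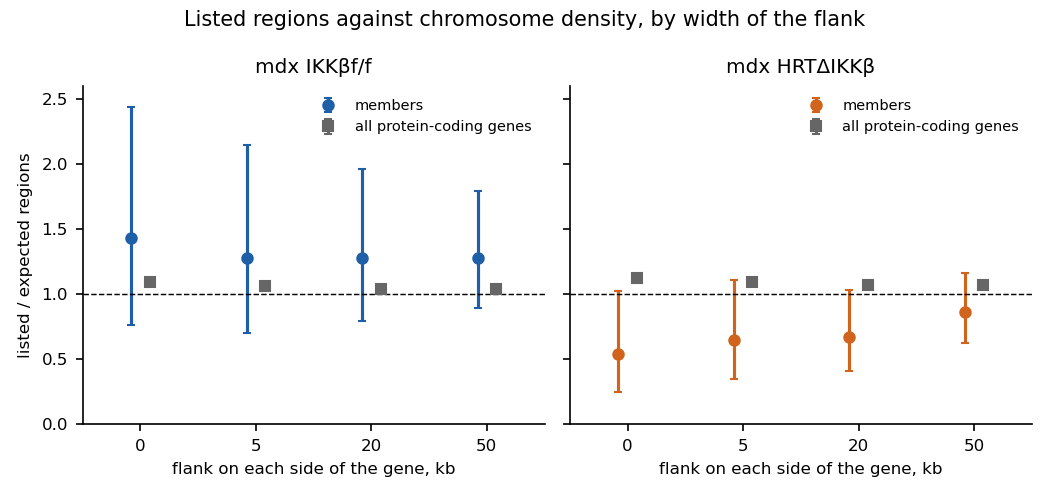
Listed over expected regions for the 35 members (coloured) and for all 22367 protein-coding genes (grey), with 0, 5, 20 or 50 kb on each side of the gene. Bars are exact Poisson 95% intervals, and the dashed line marks the expectation from chromosome density. The mdx IKKβf/f ratio of the members stays between 1.28 and 1.43, and the mdx HRTΔIKKβ ratio goes from 0.538 in the gene bodies to 0.861 with 50 kb.

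Genes of the thick filament held 5 mdx IKKβf/f regions (3.89 expected) and 4 mdx HRTΔIKKβ regions (7.14 expected) in 8 windows. Myh7, the slow or β-myosin heavy chain, had a region of each list close to its start on the minus strand of chromosome 14. The mdx IKKβf/f region was centred 1.11 kb upstream of the start, outside any gene, and covered 687 bp. It had a score of 33 and 6.91 normalised tags (4.94 to 9.42). The mdx HRTΔIKKβ region was centred 3.87 kb downstream in exon 10 and covered 500 bp. It had a score of 32 and 4.96 normalised tags (3.37 to 7.04). The normalised tags are thus sums over unlike widths. A gap of 4.39 kb separated the 2 regions. Myh6, the α-myosin heavy chain of the adult mouse heart whose promoter drives the cre, had 1 mdx IKKβf/f region and no mdx HRTΔIKKβ region. That region lay 9.06 kb past the end of the gene and 94 bp from a start of the neighbouring Il25, an interleukin gene. The 3760 bp between the 3′ end of Myh7 and the 5′ end of Myh6, where the Myh6 promoter lies, held no region of either list.

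Titin, encoded by Ttn, is the giant spring of the sarcomere. Its 279 kb gene held 2 mdx IKKβf/f regions and 1 mdx HRTΔIKKβ region, beside 1.77 and 3.25 expected. Those of mdx IKKβf/f had scores of 38 in intron 46 and 33 in exon 133. The first was the second highest mdx IKKβf/f score around the members, reached by 8.24% of the list, and lay 1439 bp from the start of a shorter titin transcript. The mdx HRTΔIKKβ region lay in exon 191 near the 3′ end, with a score of 33 and 9.44-fold over 2 input tags. Among the light chains, Myl3, the ventricular essential light chain, had an mdx HRTΔIKKβ region 0.616 kb past its end and 1.42 kb from the start of one of its transcripts, with a score of 36. Myl2, the ventricular regulatory light chain, had an mdx HRTΔIKKβ region 13.9 kb past its end, inside Ccdc63. Myl4, the atrial essential light chain, had an mdx IKKβf/f region in intron 9.

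The sequences at the centres of the Myh7 and Myl3 regions are shown because both lay within 3 kb of a start of the gene. They are from the plus strand of NCBIM37 (mm9), at chr14:55614435-55614734 and chr9:110672774-110673073. Capitals mark the matches to the motifs searched below, a CArG box and then an MCAT site in the Myl3 region, and none in the Myh7 region.
Myh7, mdx IKKβf/f: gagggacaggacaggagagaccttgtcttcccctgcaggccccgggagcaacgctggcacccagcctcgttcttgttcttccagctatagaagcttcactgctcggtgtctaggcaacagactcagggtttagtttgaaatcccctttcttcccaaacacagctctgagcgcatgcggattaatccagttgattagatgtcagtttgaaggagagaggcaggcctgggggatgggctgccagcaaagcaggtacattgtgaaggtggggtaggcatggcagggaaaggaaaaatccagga
Myl3, mdx HRTΔIKKβ: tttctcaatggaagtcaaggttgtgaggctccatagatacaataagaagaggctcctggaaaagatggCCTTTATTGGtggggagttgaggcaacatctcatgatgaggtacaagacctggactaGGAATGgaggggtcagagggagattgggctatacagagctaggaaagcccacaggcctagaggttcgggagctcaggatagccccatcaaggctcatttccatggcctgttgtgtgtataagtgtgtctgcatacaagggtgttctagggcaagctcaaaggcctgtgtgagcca

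Thin-filament genes held 2 mdx IKKβf/f regions (4.20 expected) and 5 mdx HRTΔIKKβ regions (7.73 expected) in 8 windows. Tnnc1, cardiac troponin C, the calcium sensor, had 1 mdx HRTΔIKKβ region, with a score of 31 and 4.15-fold over input. It was centred 2.33 kb upstream of the start of the annotation entry used. There it lay inside the neighbouring Nisch and inside the longer Tnnc1 entry. Tnni3, cardiac troponin I, the inhibitory subunit, had a region of each list only 1.03 kb apart. Both lay inside Syt5, at 18.3 kb upstream of Tnni3 for mdx IKKβf/f and 16.7 kb for mdx HRTΔIKKβ. In mdx IKKβf/f hearts the score was 30 and the region was 4.82-fold over 4 input tags. The mdx HRTΔIKKβ region had a score of 35 and was 10.9-fold over 2 input tags, the highest fold of any mdx HRTΔIKKβ region around the members. Their normalised tags, 4.84 (3.22 to 7.00) over 500 bp and 6.08 (4.31 to 8.35) over 630 bp, had overlapping intervals.

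Nebl, which encodes nebulette, a nebulin-like protein of the thin filament at the Z-disc, was the longest member at 388 kb. It held 1 mdx IKKβf/f region in intron 4 (score 34, 7.80-fold) and 3 mdx HRTΔIKKβ regions, all in intron 2, between 41.6 and 50.8 kb from the gene start. Their scores were 43, 32 and 35. The score of 43 was the highest around the members in either list, and 3.57% of mdx HRTΔIKKβ regions reached it. Its enrichment was 4.19-fold over 6 input tags, near the limit of 4-fold. The counts of Nebl were under those expected for a gene of its length, 2.37 for the mdx IKKβf/f list and 4.37 for that of mdx HRTΔIKKβ.

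The Tnnc1 region is shown as the one nearest to a troponin gene start, and the Nebl region for its score, both on the plus strand at chr14:32019021-32019320 and chr2:17611349-17611648. Capitals mark an MCAT site in the Tnnc1 region, read on the opposite strand. The Nebl stretch had no match and consists largely of alternating t and g.
Tnnc1, mdx HRTΔIKKβ: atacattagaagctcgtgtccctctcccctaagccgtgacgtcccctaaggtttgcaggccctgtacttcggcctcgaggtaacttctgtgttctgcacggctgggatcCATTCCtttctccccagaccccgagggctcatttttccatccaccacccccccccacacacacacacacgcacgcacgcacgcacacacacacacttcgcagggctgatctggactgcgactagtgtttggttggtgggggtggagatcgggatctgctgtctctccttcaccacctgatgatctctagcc
Nebl, mdx HRTΔIKKβ: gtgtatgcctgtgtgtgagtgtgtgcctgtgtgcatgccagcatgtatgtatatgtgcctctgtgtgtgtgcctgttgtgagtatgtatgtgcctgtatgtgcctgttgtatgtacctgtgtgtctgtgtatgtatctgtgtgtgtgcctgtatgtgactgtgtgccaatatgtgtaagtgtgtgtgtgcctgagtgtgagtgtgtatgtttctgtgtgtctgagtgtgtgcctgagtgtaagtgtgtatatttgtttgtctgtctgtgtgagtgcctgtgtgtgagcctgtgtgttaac

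The M-band genes Myom1 and Myom2 encode myomesins, which cross-link the thick filaments. Myom1 had 1 mdx IKKβf/f region in intron 11 and no mdx HRTΔIKKβ region. Myom2 had the reverse, with 0 mdx IKKβf/f regions beside 0.650 expected and 4 mdx HRTΔIKKβ regions beside 1.14 expected. They lay 1.04 kb upstream of the start, in intron 3, in intron 28 and 4.39 kb past the end. Their scores were 31, 36, 33 and 31, and their folds over input 5.72, 4.12, 4.58 and 4.15. The nearest mdx IKKβf/f region was 104 kb or more away from each of them. At least 3 mdx HRTΔIKKβ regions were found in 3 members (8.57%), Myom2, Nebl and Xirp1, beside 8.40% of all protein-coding windows. The Myom2 region upstream of the start is shown, on the plus strand at chr8:15056466-15056765, because it was the nearest to the start of any region in an upstream flank. It held no match to the motifs.
Myom2, mdx HRTΔIKKβ: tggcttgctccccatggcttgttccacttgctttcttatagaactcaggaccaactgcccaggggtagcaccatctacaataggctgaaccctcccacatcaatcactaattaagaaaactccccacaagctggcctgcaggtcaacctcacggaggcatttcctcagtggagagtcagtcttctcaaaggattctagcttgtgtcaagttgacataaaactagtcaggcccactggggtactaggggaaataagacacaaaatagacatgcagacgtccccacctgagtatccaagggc

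Over both lists together, Z-disc genes had the fewest regions, with 2 for mdx IKKβf/f (3.95 expected) and 1 for mdx HRTΔIKKβ (7.10 expected) in 10 windows. For mdx IKKβf/f alone the M-band had fewer (1) and the thin filament as many (2). Nebl was counted with the thin filament. The mdx HRTΔIKKβ ratio was 0.141 (0.00356 to 0.784), an interval below 1. With mdx HRTΔIKKβ regions of a score of at least 32 alone it was 0.233 (0.00591 to 1.30), which included 1. The 1 mdx HRTΔIKKβ region was in Tcap, which encodes telethonin, the cap that joins titin at the Z-disc. It was centred in exon 2, 0.709 kb from the start of this 1.14 kb gene, and covered 680 bp. Its 7.69 normalised tags (5.67 to 10.2) were the highest value among the regions around the members, while its score of 34 was reached by 36.3% of the list. The nearest mdx IKKβf/f region was 37.5 kb away. The mdx IKKβf/f regions were in introns of Ldb3 and Pdlim5, PDZ and LIM domain proteins of the Z-disc. Each had the lowest possible score of 29, and they were 8.60-fold and 9.64-fold over 2 input tags. The coding part of the Tcap region centre is shown, since it is the only region inside a member gene within 3 kb of its first start. It is the plus strand at chr11:98245684-98245856, the gene's own strand, and held no motif match.
Tcap, mdx HRTΔIKKβ: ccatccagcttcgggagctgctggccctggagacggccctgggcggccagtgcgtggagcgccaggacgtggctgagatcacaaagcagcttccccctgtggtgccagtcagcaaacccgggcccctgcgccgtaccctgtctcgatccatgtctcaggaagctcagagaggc

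The 5 genes of desmin, filamin and the intercalated disc held 7 mdx IKKβf/f regions beside 1.77 expected, a ratio of 3.96 (1.59 to 8.16), and 4 mdx HRTΔIKKβ regions beside 3.27 expected (ratio 1.22, 0.334 to 3.13). By GC class the mdx IKKβf/f ratio was 2.81. Flnc, filamin C, the actin cross-linker of muscle, gave 4 of the 7 mdx IKKβf/f regions, beside 0.323 expected, and 0 mdx HRTΔIKKβ regions, beside 0.606 expected. Without Flnc the group had 3 mdx IKKβf/f regions beside 1.45 expected (ratio 2.08, 0.428 to 6.07), an interval that included 1. Flnc was the 1 member (2.86%) with at least 3 mdx IKKβf/f regions, beside 3.26% of all protein-coding windows. Its regions lay in exon 5, in exon 43, and 11.1 and 12.2 kb past the end, the last pair in Gm9047 and Kcp. The exon 5 region covered 625 bp, with a score of 40, the highest mdx IKKβf/f score around the members, reached by 4.39% of the list. The other 3 scored 32, 31 and 33. No mdx HRTΔIKKβ region was nearer than 19.1 kb.

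The exon 5 region of Flnc is shown for its score, on the plus strand at chr6:29390571-29390870, which is the strand of the gene. Capitals mark a GATA site.
Flnc, mdx IKKβf/f: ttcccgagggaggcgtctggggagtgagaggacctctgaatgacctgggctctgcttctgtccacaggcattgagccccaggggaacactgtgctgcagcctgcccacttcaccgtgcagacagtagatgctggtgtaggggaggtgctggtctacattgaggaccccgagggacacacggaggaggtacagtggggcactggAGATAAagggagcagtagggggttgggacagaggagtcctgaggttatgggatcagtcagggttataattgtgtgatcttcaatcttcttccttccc

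Xirp1 and Xirp2 encode the Xin proteins of the intercalated disc, and their windows held regions of opposite lists. Xirp1 had 3 mdx HRTΔIKKβ regions and 0 mdx IKKβf/f regions, beside 0.534 and 0.295 expected. Of these, 1 lay in exon 2 with a score of 32, and the others 10.8 and 18.1 kb upstream of the start, outside any gene, with scores of 37 and 40. Xirp2 had 2 mdx IKKβf/f regions and none of mdx HRTΔIKKβ, beside 0.669 and 1.23 expected. The first, in intron 2, had a score of 35 and was 12.1-fold over 2 input tags, the highest fold of any region around the members. The second lay 8.46 kb past the end and was 9.98-fold, also over 2 input tags. Des, the gene of desmin, the intermediate filament of muscle, had 1 region of each list, both inside the neighbouring Speg, another striated muscle gene. They lay 12.8 kb past the end of Des in mdx IKKβf/f hearts and 14.6 kb past it in mdx HRTΔIKKβ hearts, with a gap of 1.26 kb and scores of 30 and 32.

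The myosin chaperone Unc45b and the methyltransferase Smyd1, both needed to build thick filaments, had 4 mdx IKKβf/f regions beside 1.14 expected (ratio 3.51, 0.957 to 8.99) and 2 mdx HRTΔIKKβ regions beside 2.14. In Smyd1 the mdx IKKβf/f regions lay in intron 1, 7.89 and 18.3 kb from the start, with scores of 30 and 31. The mdx HRTΔIKKβ region of Smyd1 was 16.3 kb past the end, with a score of 32. In Unc45b, 1 mdx IKKβf/f region of score 34 lay 9.91 kb upstream and 1 mdx HRTΔIKKβ region of score 34 lay 13.0 kb upstream, both in Fndc8 and 2.59 kb apart. The other mdx IKKβf/f region was in intron 19 with a score of 29.

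**Figure D3:**
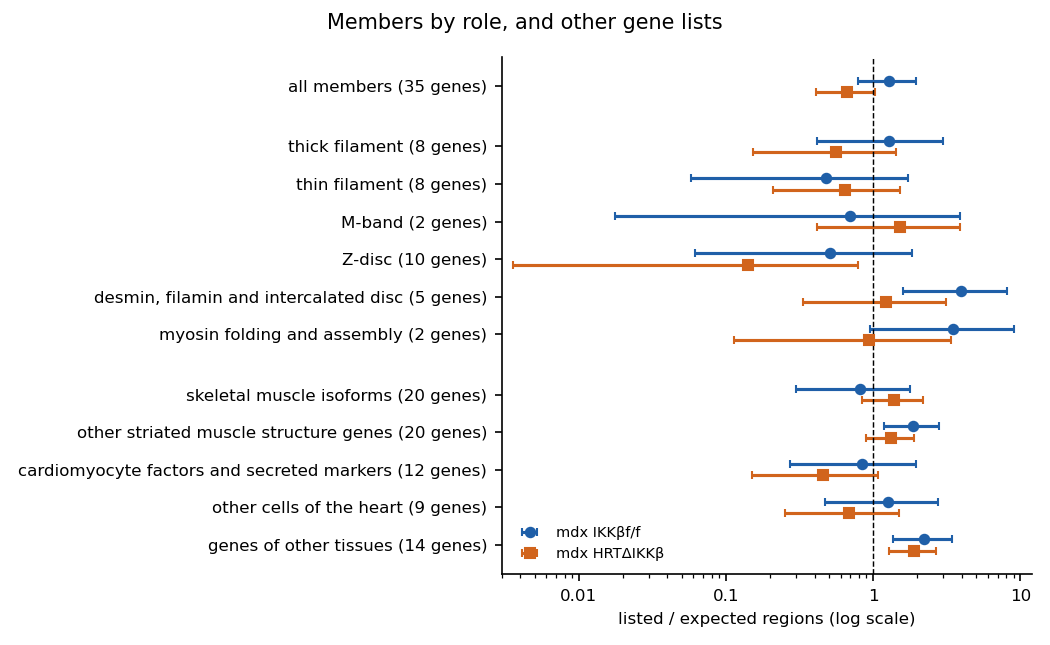
Listed over expected regions for all members, for the members by role and for 5 other gene lists, with mdx IKKβf/f as circles and mdx HRTΔIKKβ as squares, on a log scale. Bars are exact Poisson 95% intervals and the dashed line marks the expectation from chromosome density. The mdx IKKβf/f interval of the desmin, filamin and intercalated disc genes (ratio 3.96) lies above 1, but not without Flnc (2.08, 0.428 to 6.07). Also above 1 are the intervals of other striated muscle structure genes in mdx IKKβf/f (ratio 1.87) and of genes of other tissues in both genotypes (2.23 and 1.89). Those of other tissues include 1 without Rbfox3. The mdx HRTΔIKKβ interval of the Z-disc genes (ratio 0.141) lies below 1, but not with the higher score threshold of 32.

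Of the 41 regions, 13 mdx IKKβf/f and 9 mdx HRTΔIKKβ regions lay inside a member's own gene body. Among those in the flanks, 6 of 8 were inside another gene for mdx IKKβf/f and 5 of 11 for mdx HRTΔIKKβ. A further protein-coding gene shared 28 of the 35 windows, so a region in a window need not belong to the member. Within 3 kb of the start of any gene lay 33.3% (17.2% to 54.6%) of the mdx IKKβf/f regions and 35% (18.1% to 56.7%) of those of mdx HRTΔIKKβ hearts, beside 12% and 12.2% of the whole lists. Of the sequence in the windows, 24.8% was within 3 kb of a start. This value lay inside both intervals, so the share near starts did not exceed that of the windows themselves beyond counting error. A start of the member itself was within 3 kb for 2 mdx IKKβf/f regions (Myh7 and Ttn) and 5 mdx HRTΔIKKβ regions (Tcap, Tnnc1, Myl3 and 2 in Myom2). The Ttn region, the Myl3 region and 1 Myom2 region were near starts of other transcripts, 155, 6.77 and 63.4 kb from the gene start. The share over all genes was not counted, so these counts are not compared between genotypes.

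**Figure D4:**
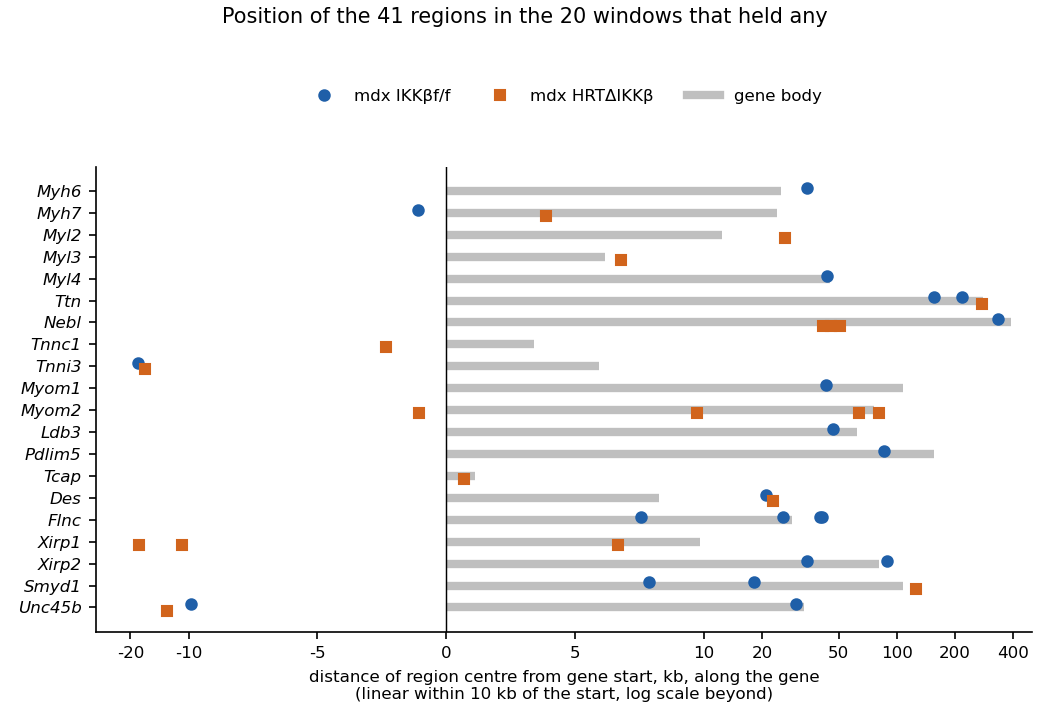
Centres of the 21 mdx IKKβf/f regions (circles) and the 20 of mdx HRTΔIKKβ (squares) along the 20 members that had any, as distance from the gene start in kb in the direction of transcription, linear within 10 kb and log beyond. Grey bars are gene bodies. Few points fall near 0, and a point of each genotype lies side by side outside the gene for Des, Tnni3 and Unc45b.

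No region around the members overlapped a region of the other list. In the whole lists 399 regions of each did, 3.18% for mdx IKKβf/f and 1.74% for mdx HRTΔIKKβ, and at these shares 0.668 and 0.348 member regions would overlap. Within 2 kb of a region of the other list were 2 of the 21 mdx IKKβf/f regions and 2 of the 20 from mdx HRTΔIKKβ hearts, those of Des and Tnni3. In the whole lists this held for 9.48% and 5.29%. Within 5 kb it held for 4 regions of each list, those of Des, Tnni3, Unc45b and Myh7, beside 17.7% and 10.0% of the lists. The median gap from an mdx IKKβf/f region to the nearest mdx HRTΔIKKβ region was 52.4 kb.

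Enrichment around the members was modest. Scores ran from 29 to 40 (median 31) for mdx IKKβf/f and from 30 to 43 (median 33) for mdx HRTΔIKKβ, where the highest scores of the whole lists were 56 and 73 and the medians 31 and 32. Within 5 tags of the threshold were 85.7% of the mdx IKKβf/f regions and 75.0% of those of mdx HRTΔIKKβ hearts, beside 79.7% and 77.7% of the lists. Fold over input had a median of 5.33 around the members for mdx IKKβf/f and 4.45 for mdx HRTΔIKKβ, beside 5.16 and 5.0 in the lists. At least 8-fold over input were 5 mdx IKKβf/f regions (2 in Xirp2 and 1 each in Ldb3, Pdlim5 and Smyd1) and 3 mdx HRTΔIKKβ regions (Ttn, Tnni3 and Unc45b). These were 23.8% and 15.0% of the regions around the members, beside 14.9% and 20.7% of the lists. All of these member regions had only 2 input tags, and no member region with more input tags reached 8-fold. A high fold here thus went with a low input count. The regions were 500 bp wide, the caller's smallest width, in 19 of 21 and 18 of 20 cases.

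**Figure D5:**
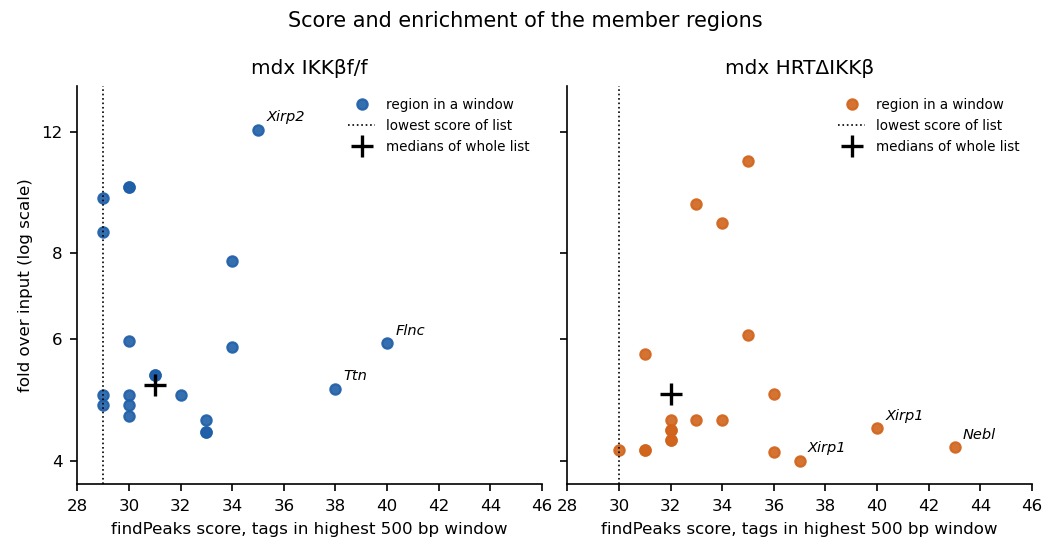
findPeaks score (tags, x axis) and fold over input (y axis, log scale) of the regions around the members, with the 3 highest scores of each genotype named, for mdx IKKβf/f (left) and mdx HRTΔIKKβ (right). The cross gives the medians of the whole list and the dotted line its lowest score. Most points sit near the threshold, with Flnc at 40, and Nebl at 43.

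Short motifs of muscle transcription factors were searched on both strands of the 300 bases at the centre of each region. The MCAT site GGAATG, bound by TEAD factors, was in 11 of 41 regions (26.8%), against 17.1% of all 35504 regions. The E-box CAGCTG was in 7 (17.1% against 18.4%) and the GATA site AGATAA in 3 (7.32% against 13.4%). The CArG box of serum response factor was in 1 (2.44% against 1.39%), the Myl3 region shown above. The MEF2 site was in 0 of 41, against 2.17% of all regions. The NF-κB site was in 2 (4.88% against 5.60%), 1 of them the intron 28 region of Myom2. A match describes the letters in these stretches and says nothing of binding.

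Other muscle genes were counted in the same way. Among 20 isoforms of skeletal muscle, such as Neb (nebulin, with 3 mdx HRTΔIKKβ regions only), 6 had an mdx IKKβf/f region and 13 an mdx HRTΔIKKβ region, with ratios to expectation of 0.815 (0.299 to 1.77) and 1.39 (0.838 to 2.17). Among 20 other structural genes of striated muscle, 11 had an mdx IKKβf/f region and 15 an mdx HRTΔIKKβ region, with ratios of 1.87 (1.19 to 2.81) and 1.33 (0.899 to 1.90). By GC class these became 1.26 and 0.884. Examples, chosen after their counts were seen, were Fhod3 (a formin, 4 mdx IKKβf/f and 4 mdx HRTΔIKKβ), Nrap (0 and 4) and Speg (2 and 4, with 1 of each list shared with the Des window). Among 12 cardiomyocyte factors and secreted markers, 2 had an mdx IKKβf/f region and 5 an mdx HRTΔIKKβ region, with ratios of 0.841 (0.273 to 1.96) and 0.459 (0.149 to 1.07). Nkx2-5, a defining transcription factor of the heart, had none in either list, and Nppa, the gene of atrial natriuretic peptide, had 0 and 2. Tbx5, another cardiac transcription factor, had 4 mdx IKKβf/f regions and 1 mdx HRTΔIKKβ region, which is 4 of the 5 mdx IKKβf/f regions around these genes.

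Markers of other heart cells and of other tissues were counted as well. Of 9 genes of endothelial cells, fibroblasts and leukocytes, 4 had an mdx IKKβf/f region and 5 an mdx HRTΔIKKβ region, with ratios of 1.27 (0.468 to 2.77) and 0.684 (0.251 to 1.49). Of 14 genes of liver, neurons, pancreas and skin, 5 had an mdx IKKβf/f region and 10 an mdx HRTΔIKKβ region, with ratios of 2.23 (1.36 to 3.44) and 1.89 (1.28 to 2.68). Rbfox3, a gene of neurons singled out after its count was seen, alone held 13 and 18 of these, and without it the ratios were 1.13 (0.455 to 2.33) and 1.17 (0.623 to 2.0). The ratios of the sarcomere members were 1.28 (0.794 to 1.96) and 0.666 (0.407 to 1.03). They lay below the intervals of the 14 genes and inside those without Rbfox3, so the comparison depends on a removal made after the counts were seen.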

How the data were processed

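H3K27ac ChIP and input were sequenced from hearts of both genotypes, with 1 library each. The authors mapped unique reads to mm9 with Bowtie2 and called regions against the input with HOMER findPeaks (version not given in the sources used here). The deposited lists give for each region the normalised tag coverage per 10000000 tags, a findPeaks score in tags, a fold over input (a ratio) and a Poisson p-value that the authors' caller computed from ChIP and input tags. Regions were already limited to 4-fold over input at p of 0.0001.

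Coordinates were used with NCBIM37 and GENCODE vM1, whose chromosome lengths contain all regions. Tnnc1 has several GENCODE entries, and the one that RefSeq pairs with the symbol was used. Adgre1 was found under its older symbol Emr1. The expected count was the regions per base of known sequence on the chromosome times the bases of the window, and by GC class the same within classes of 2% in bins of 1000 bp. Windows were joined where they overlapped, into 34, before sums were made. Intervals are exact Poisson for counts and Wilson for shares. No test between genotypes was made. Counting, expectation and overlap were tested on simulated regions. All 35 members are accounted for. Region values are given for members with regions of both lists, with a region within 3 kb of a start, or with the highest counts or scores. The members and all gene lists were chosen with earlier results of these data known. The calculations used SciPy 1.17.1, pandas 2.3.3 and NumPy 2.4.6 under Python 3.11.15, and plots used matplotlib 3.10.9.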

Additional observations from a re-analysis of the deposited data

How the results depend on the processing

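With 1 library per genotype nothing could be left out as a replicate, and the lists hold only windows past the caller's limits. No paired analysis was possible because each genotype had 1 ChIP library and no test was made. With the gene body alone the mdx IKKβf/f and mdx HRTΔIKKβ counts were 13 and 9 (with 6 mdx HRTΔIKKβ windows), and with 50 kb 35 and 43 (23 mdx HRTΔIKKβ windows). With 5 kb the mdx HRTΔIKKβ count was 13 in 8 windows. At 8-fold over input, 5 mdx IKKβf/f regions in 4 windows (ratio 2.16) remained, all with 2 input tags. So did 3 mdx HRTΔIKKβ regions in 3 windows (ratio 0.471), also with 2 input tags. The mdx HRTΔIKKβ share of these regions was 37.5% (13.7% to 69.4%), an interval below the 71.9% of the whole lists at this fold. At a score 1.5 times the lowest, 0 regions of either list remained in 0 windows (ratio 0), as did only 142 and 462 regions of the whole lists. The share near a start was 9.52% and 15.0% within 1 kb, and 66.7% and 65% within 10 kb. The ratios kept their side of 1 with every flank, with joined regions and with the mdx HRTΔIKKβ threshold raised to a score of 32 (0.873). They also did so with 2 choices made after seeing the data, the longer Tnnc1 entry (1.33 and 0.659) and leaving out Flnc (1.06 and 0.680). By GC class the mdx IKKβf/f ratio was 0.991. By GC class with the score threshold of 32, also chosen after seeing the data, the mdx HRTΔIKKβ ratio was 0.649. No overlap with the other list appeared when it was extended by 1000 bp.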
